A study of Mus musculus with 11 samples.

Results

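Cyclic nucleotide phosphodiesterases end the signals carried by cAMP and cGMP, and Pde2a is a dual-specificity member of the family that cGMP stimulates. The 10 genes described here are other genes of the dual and cGMP branches of the family, chosen by name: the calcium- and calmodulin-stimulated Pde1a, Pde1b and Pde1c, the cGMP-inhibited Pde3a and Pde3b, the cGMP-specific Pde5a and Pde9a, the dual-specificity Pde10a and Pde11a, and Pde6d. All 10 were found among the 55487 gene identifiers of the counts, and all 10 had at least the 10 counts over all hearts that were required for testing. The questions put to them were how abundant each was in the fetal heart, and whether its level differed when Pde2A was lost.

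Each library held the RNA of 1 embryonic heart, taken at E14.5 from 5 Pde2A-/- and 6 Pde2A+/+ embryos. The embryos came from matings of heterozygous mice of the line B6; 129P2-Pde2A<tm1Dgen>, so the allele was not limited to the heart, and the labels give no treatment for either genotype. The sense strand of genes held 35865537 to 42835382 reads in a heart, and a two-sided exact permutation test between genotypes gave p = 0.87. The genotypes could not be checked from Pde2a itself, which had between 0 and 2 counts in every heart. Of its exon bases 64.3% are shared with Gm45837 and Mir139 on the same strand, and a read on more than 1 gene is counted for none, but the part of this overlap in the low counts was not tested. None of the 10 genes shares exon bases with another gene on its strand. The tissue label was borne out by cardiomyocyte genes, of which Myh7, Actc1 and Tnnt2 averaged 13839, 7890 and 5083 CPM, the counts put on one library size by TMM, in Pde2A+/+ hearts.

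In a working heart, cAMP drives the force and rate of beating through protein kinase A, while cGMP, made in answer to nitric oxide and natriuretic peptides, acts through protein kinase G. The pathways meet at the dual phosphodiesterases. Pde3 binds both nucleotides and is slowed by cGMP, Pde1 is switched on by calcium, Pde5 (the target of sildenafil) removes cGMP alone, and Pde6d, named as the delta subunit of the photoreceptor enzyme, hydrolyses neither nucleotide but carries prenylated proteins between membranes.

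The difference between Pde6d and the others can be read in the coding sequence. The catalytic domain of these enzymes holds a short metal-binding signature, written in capitals below as the codons for histidine, asparagine, any 2 residues and histidine. Each line is 27 coding bases, 5′ to 3′, read from GENCODE M21 transcripts on GRCm38, and Pde2a is given for comparison.

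Pde2a: ccctacCACAACTGGATGCACgccttc

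Pde1a: ccatatCATAATTTGGTCCATgcagct

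Pde3a: ccttatCATAACAGAATCCATgccacc

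Pde5a: gcctacCACAATTGGAGGCATgccttt

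Pde9a: cccttcCACAACTTCCGGCACtgcttc

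Pde10a: ccttacCACAACTGGAAGCATgcagtc

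Pde11a: ctctacCACAACTGGAGACATgccttc

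These lie at chr7:101508044-101508070 on the plus strand for Pde2a, chr2:79897113-79897139 on the minus strand for Pde1a, chr3:122823107-122823133 on the plus strand for Pde5a, chr17:31459931-31459957 on the plus strand for Pde9a, chr17:8964626-8964652 on the plus strand for Pde10a and chr2:76075386-76075412 on the minus strand for Pde11a. The stretch of Pde3a is split over a pair of exons between 141483962 and 141487518 on the plus strand of chromosome 6. The longest coding sequence of Pde6d has no such run of codons. That of Pde10a has 2 such runs, of which the first is shown.

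Among the 9 enzymes, the Pde3 genes were the most abundant per length. Levels between genes are compared here as CPM per kb of exon, from the normalized counts of each heart. In Pde2A+/+ hearts Pde3a had 7.32 ± 0.58 and Pde3b 5.68 ± 0.19 CPM per kb (mean ± SD, n = 6). Pde1a followed at 3.89 ± 0.17 and Pde5a at 3.36 ± 1.10 CPM per kb. Lower levels were found for Pde9a (1.59 ± 0.16), Pde1b (1.33 ± 0.08), Pde1c (0.99 ± 0.27), Pde10a (0.32 ± 0.06) and Pde11a (0.076 ± 0.029 CPM per kb). The ranges of neighbours in this order did not overlap in Pde2A+/+ hearts, except for Pde1a with Pde5a and for Pde1b with Pde1c. Pde6d, a short gene that is no enzyme, stood above them all at 22.7 ± 1.4 CPM per kb.

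The first place of Pde3a depended on the length by which counts are divided. With the longest annotated transcript in place of all exons, Pde3b had 7.88 and Pde3a 7.58 CPM per kb in Pde2A+/+ hearts, and Pde1c moved above Pde1b, while the other places were kept. As a share of the sum over the 9 enzymes, the Pde3 genes made up 53.0% ± 2.6 in Pde2A+/+ hearts (n = 6) and 52.7% ± 0.93 in Pde2A-/- hearts (n = 5). The Pde1 genes made up 25.3% ± 1.6 and 27.8% ± 1.8, and the cGMP-specific Pde5a and Pde9a together 20.04% ± 4.12 and 17.4% ± 1.3. These shares divide by all exons. With the longest transcript instead, the Pde3 genes made up 47.5% and 46.1%, and the Pde1 genes 29.1% and 32.3%. Pde5a and Pde9a then made up 21.5% and 18.9%. The sum of all 10 genes was 47.3 ± 0.96 CPM per kb in Pde2A+/+ and 47.7 ± 1.3 in Pde2A-/- hearts. Of this sum Pde6d, which is no enzyme, made up 22.7 CPM per kb in Pde2A+/+ and 20.46 in Pde2A-/- hearts. The remainder, from the 9 enzymes, was therefore higher on average in Pde2A-/- hearts, and this difference was not tested.

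Among the cAMP-specific phosphodiesterases, which leave cGMP untouched, Pde4b was the most abundant, at 5.06 ± 0.53 CPM per kb in Pde2A+/+ hearts. Its mean stood between those of Pde3b and Pde1a, but its range of 4.57 to 5.77 overlapped that of Pde3b, 5.41 to 5.98. In Pde2A-/- hearts the mean of Pde4b was 7.77 ± 1.25 CPM per kb (n = 5), above Pde3b at 5.25 ± 0.24 and below Pde3a at 9.09 ± 1.27. There its range of 6.48 to 9.49 overlapped that of Pde3a, 7.90 to 10.81. The place of Pde4b by longest transcript was not computed. Across all named genes tested, 74.7% had a lower level per kb than Pde3a in Pde2A+/+ hearts, 91.0% a lower one than Pde6d, 62.3% a lower one than Pde5a and 19.4% a lower one than Pde11a.

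**Figure D1:**
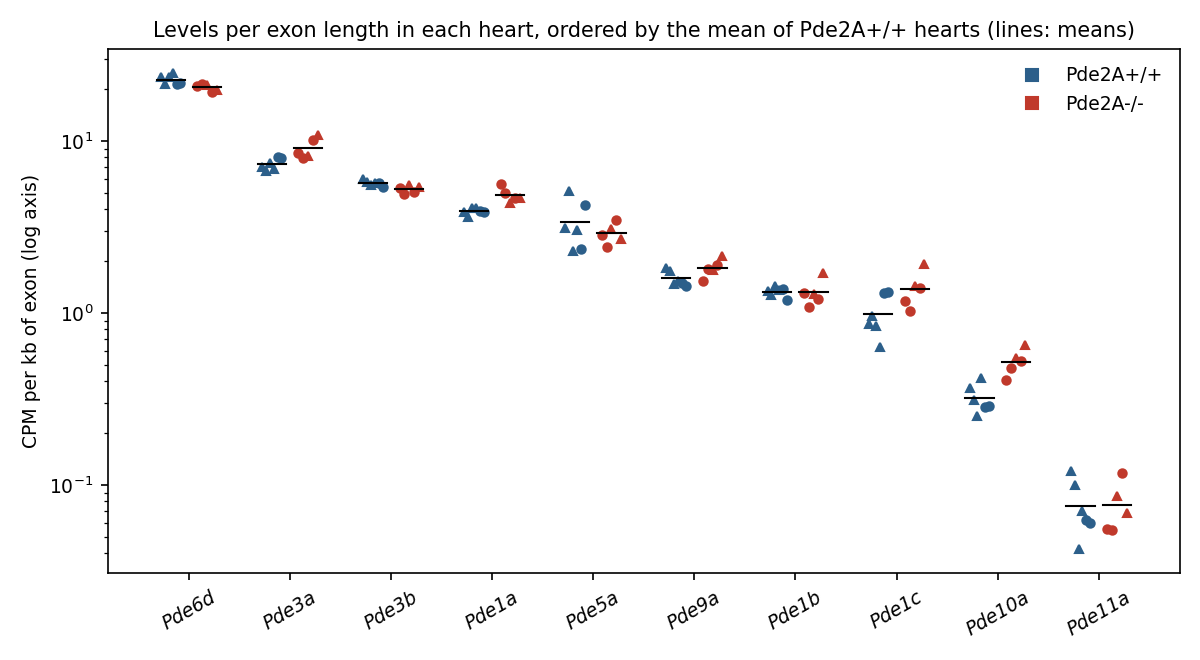
CPM per kb of exon (log axis) of the 10 genes in each heart, Pde2A+/+ in blue and Pde2A-/- in red, with circles for letter-named and triangles for number-named hearts and lines at the genotype means. The levels run from 22.7 CPM per kb for Pde6d to 0.076 for Pde11a in Pde2A+/+ hearts.

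Between the genotypes, Pde1a, Pde3a and Pde10a rose in Pde2A-/- hearts, each by less than 2-fold. These 3 of 10 calls, at an adjusted p under 0.05 in edgeR's quasi-likelihood test over 24177 genes, stand beside 14.6% of all genes called, 8.93% higher and 5.67% lower. With no gene of the 10 called lower in edgeR, 2 genes, Pde3b and Pde6d, were lower at an unadjusted p under 0.05, which 30.5% of all genes passed in either direction, and DESeq2 called both lower. A fold of at least 2 besides, which 2.59% of all genes met, was met by none of the 10 in edgeR or in DESeq2. The median log2 fold change of the 10 genes was 0.11, against -0.02 for all genes tested.

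**Figure D2:**
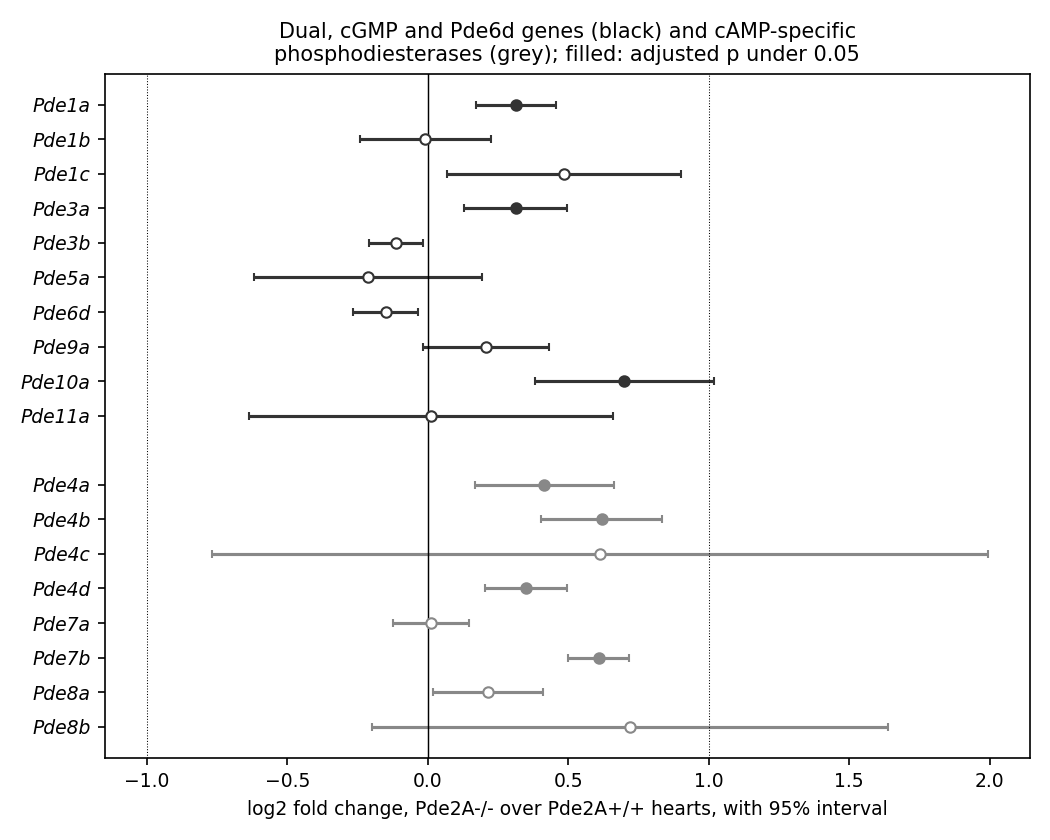
Log2 fold change of Pde2A-/- over Pde2A+/+ hearts with its 95% interval from edgeR, for the 10 genes in black and the 8 cAMP-specific phosphodiesterases in grey; filled points have an adjusted p under 0.05 and dotted lines mark a 2-fold change. Pde10a is highest of the 10 at 0.70, Pde1a and Pde3a are filled at 0.31, and 4 of the 8 cAMP-specific genes are filled.

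Pde10a, best known from the striatum of the brain, had the largest change of the 10 and was one of the least abundant. It lies on chromosome 17 from 8525372 to 8986648 on the plus strand (GRCm38). Its level was 5.19, 6.14, 7.02, 6.72 and 8.32 CPM in Pde2A-/- replicates A, B, 14, D and 15. In Pde2A+/+ hearts it ran from 3.23 through a median of 3.86 to 5.36 CPM. Only Pde2A-/- replicate A fell within the Pde2A+/+ range, and the other 4 lay above all 6 Pde2A+/+ hearts. The level was 1.62-fold higher in Pde2A-/- hearts (95% interval 1.30 to 2.03; log2 0.70 ± 0.15 SE, edgeR adjusted p = 0.0093). It rested on 118 to 302 reads per heart. The call was kept without each heart in turn, with log2 changes from 0.61 to 0.79.

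Pde1a, whose enzyme answers calcium through calmodulin, was the gene of the 10 whose genotypes did not overlap, which 8.49% of all genes tested showed, 5.38% with the Pde2A-/- hearts higher. It lies on chromosome 2 from 79834453 to 80129458 on the minus strand. Its level was 33.9, 29.8, 26.1, 27.9 and 27.9 CPM in Pde2A-/- replicates A, B, 14, D and 15, and between 21.6 and 24.5 CPM, with a median of 23.4, in Pde2A+/+ hearts. Every Pde2A-/- heart was above every Pde2A+/+ heart. The rise was 1.24-fold (95% interval 1.13 to 1.37; log2 0.31 ± 0.07 SE, edgeR adjusted p = 0.0091), and each of the 11 fits without 1 heart called it.

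Pde3a, the most abundant of the 9 enzymes per kb of exon, lies on chromosome 6 from 141249269 to 141507448 on the plus strand. Its level was 108.7, 100.6, 103.9, 128.0 and 137.7 CPM in Pde2A-/- replicates A, B, 14, D and 15. In Pde2A+/+ hearts it ran from 84.6 through a median of 92.1 to 102.2 CPM. Pde2A-/- replicate B lay below the 2 highest Pde2A+/+ hearts, H and E, and the other 4 lay above all of them. The rise of 1.24-fold (95% interval 1.09 to 1.41; log2 0.31 ± 0.09 SE, edgeR adjusted p = 0.029) was the least firm of the 3. It lost its call without Pde2A-/- replicate 15 (adjusted p = 0.071) or D (0.084), and without Pde2A+/+ replicate 7 (0.054), 11 (0.053), 6 (0.054) or 8 (0.059).

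**Figure D3:**
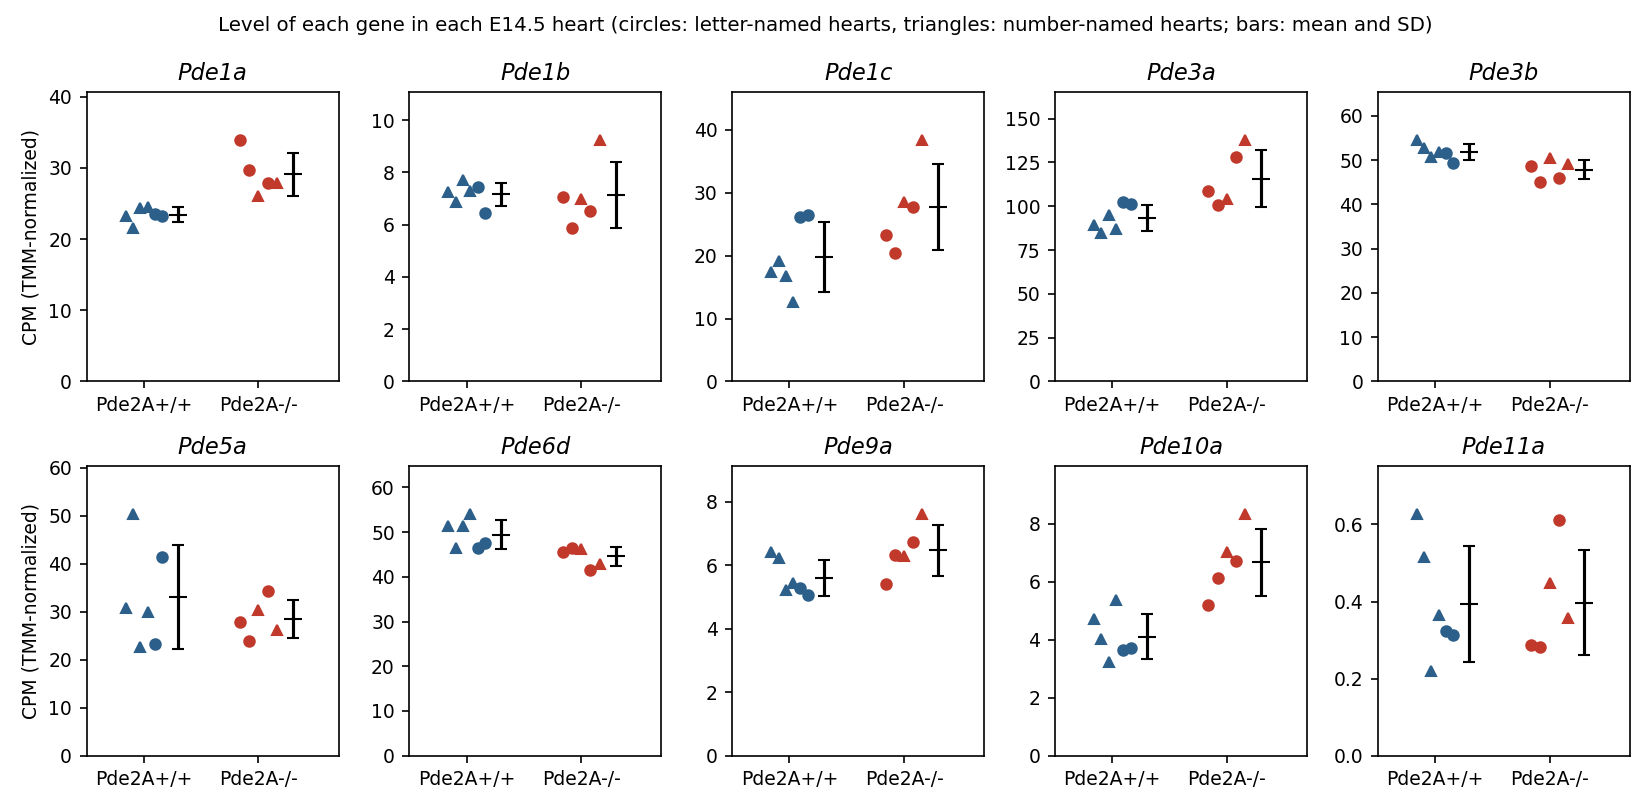
TMM-normalized CPM of each gene in each heart on axes that start at 0, Pde2A+/+ in blue and Pde2A-/- in red, circles for letter-named and triangles for number-named hearts, bars for mean and SD. For Pde1a every red point lies above every blue one, and for Pde5a the blue points spread from 22.6 to 50.2 CPM.

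The paralogues of these genes did not all follow them. Pde3b, on chromosome 7 from 114415281 to 114539251, had 48.7, 45.0, 50.4, 46.0 and 49.0 CPM in Pde2A-/- replicates A, B, 14, D and 15. In Pde2A+/+ hearts it had between 49.3 and 54.5 CPM, with a median of 51.7. Although 4 of the 5 Pde2A-/- hearts lay below all Pde2A+/+ hearts, the difference was small and not called (log2 -0.11, 95% interval -0.21 to -0.02, edgeR adjusted p = 0.10; DESeq2 adjusted p = 0.044). Pde3b lies 12.9 Mb from Pde2a on the same chromosome. Around it, 40 tested genes were taken in order of start position, in equal number on each side. Of these 40, 4 were called higher and 6 lower, 10 in all, beside 14.6% of all genes tested.

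Within single hearts, the ratio of Pde3a to Pde3b per kb was 1.596, 1.600, 1.476, 1.990 and 2.009 in Pde2A-/- replicates A, B, 14, D and 15, and from 1.146 through a median of 1.268 to 1.471 in Pde2A+/+ hearts. The lowest Pde2A-/- heart was just above the highest Pde2A+/+ heart, so that the ranges did not overlap. Of single genes tested 8.49% did not overlap, and the share of other gene pairs whose ratios do not overlap was not computed. No test was run on the ratio, which combines a called gene with one that was not. The ratio of Pde1a to Pde1b was 3.76 ± 0.74 in Pde2A-/- (n = 5) and 2.94 ± 0.16 in Pde2A+/+ hearts (n = 6), with Pde2A-/- replicate 15 at 2.72 below all Pde2A+/+ hearts. Pde1b itself, on chromosome 15 from 103503034 to 103530052, averaged 7.12 ± 1.27 CPM in Pde2A-/- and 7.16 ± 0.45 CPM in Pde2A+/+ hearts (log2 -0.01, 95% interval -0.24 to 0.23, edgeR adjusted p = 0.97).

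Pde1c, on chromosome 6 from 56069804 to 56569103, was the gene whose answer depended most on which hearts were compared. Its level was 23.4, 20.4, 28.6, 27.8 and 38.3 CPM in Pde2A-/- replicates A, B, 14, D and 15. In Pde2A+/+ hearts 7, 11, 6 and 8 it was 17.4, 19.2, 16.7 and 12.7 CPM, and in H and E 26.1 and 26.5 CPM. The labels name some hearts by letters and others by numbers, without saying what the names stand for, and the 2 letter-named Pde2A+/+ hearts were the high ones. Over all hearts the log2 change was 0.49 ± 0.19 SE (95% interval 0.07 to 0.90, edgeR adjusted p = 0.11), and DESeq2 called it (adjusted p = 0.048).

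Among the 3 Pde2A-/- and 2 Pde2A+/+ letter-named hearts alone, the log2 change of Pde1c was -0.15 (edgeR adjusted p = 0.73), and among the 2 Pde2A-/- and 4 Pde2A+/+ number-named hearts 1.02 (adjusted p = 0.0070). The difference between these effects, tested after the values had been seen, was 1.16 ± 0.24 SE on the log2 scale with an unadjusted p of 4.5e-04 in the edgeR fit with an interaction term. Adjusted over all genes its p was 0.65, and that fit called 0 genes at an adjusted p under 0.05 and 1763 genes, 7.29%, at an unadjusted p under 0.05. For the called genes the log2 changes in letter-named and number-named hearts were 0.71 and 0.82 for Pde10a, 0.38 and 0.20 for Pde1a and 0.14 and 0.44 for Pde3a. In the letter-named hearts alone edgeR called 0 of the 10 genes, and of all 21466 genes tested there 86 higher and 14 lower. Of the 10 genes, 2 had an unadjusted p under 0.05 in that fit. The share of all genes at that limit was not computed for these hearts. In the number-named hearts alone edgeR called Pde1c, Pde3a (adjusted p = 0.027) and Pde10a (0.031) but not Pde1a (0.11). Of all 22191 genes tested there it called 2310 higher and 1814 lower.

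**Figure D4:**
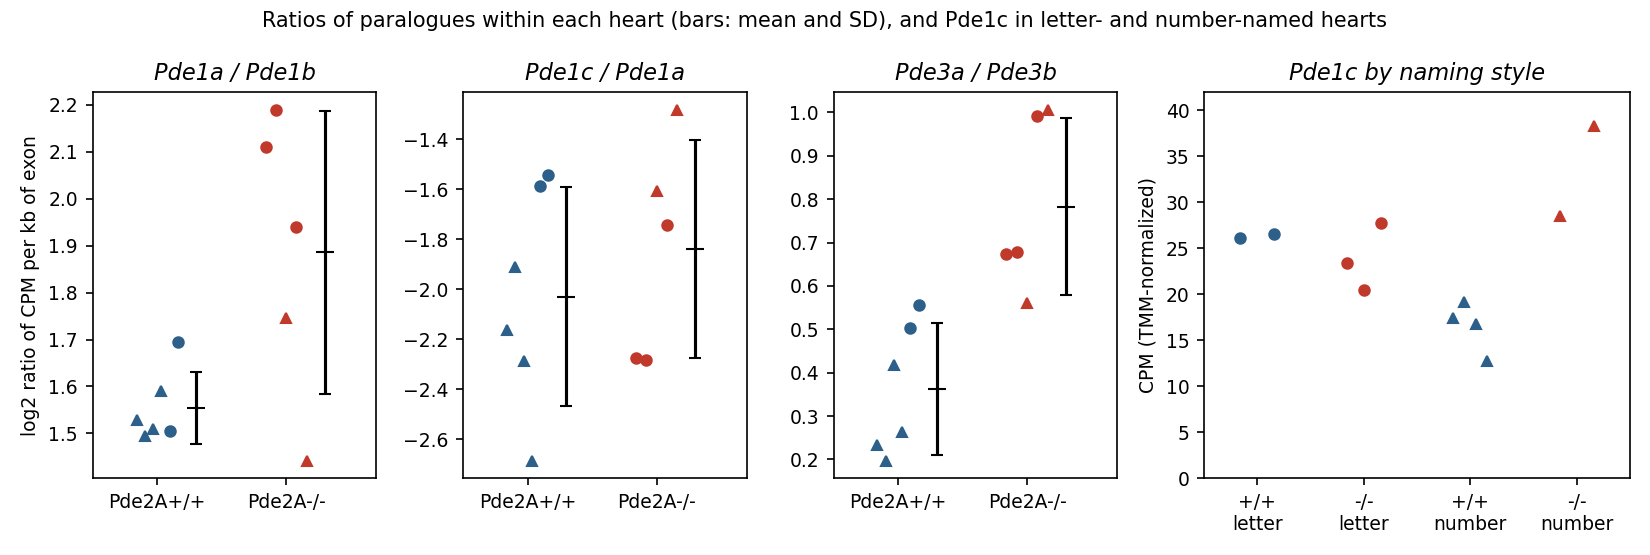
Log2 ratio of CPM per kb of exon for 3 pairs of paralogues in each heart (first 3 panels, bars for mean and SD), and CPM of Pde1c in letter-named and number-named hearts of each genotype (last panel). The ranges of the Pde3a to Pde3b ratio lie just apart between genotypes, and the share of other gene pairs that do so was not computed. Pde1c is higher in Pde2A-/- than in Pde2A+/+ hearts among number-named hearts but not among letter-named ones.

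The cGMP-specific enzymes were not called. Pde5a, on chromosome 3 from 122728947 to 122859374, had 27.9, 23.8, 30.3, 34.2 and 26.3 CPM in Pde2A-/- replicates A, B, 14, D and 15. In Pde2A+/+ hearts it ran from 22.6 through a median of 30.3 to 50.2 CPM, with replicates 11 and E the highest. The Pde2A-/- range lay inside the Pde2A+/+ range, and the log2 change of -0.21 had an interval from -0.62 to 0.19 (edgeR adjusted p = 0.49), so that a fall to 0.65-fold or a rise to 1.14-fold could not be told from none. Without Pde2A+/+ replicate 11 the log2 change was -0.05, and without replicate E -0.14. Pde9a, on chromosome 17 from 31386210 to 31476310, averaged 6.47 ± 0.80 CPM in Pde2A-/- and 5.61 ± 0.56 CPM in Pde2A+/+ hearts (log2 0.21, 95% interval -0.02 to 0.43, edgeR adjusted p = 0.20).

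Pde11a and Pde6d lay at the ends of the scale. Pde11a, on chromosome 2 from 75989141 to 76338774, had between 8 and 24 reads per heart, and its log2 change of 0.01 had an interval from -0.64 to 0.66 (edgeR adjusted p = 0.99). A change of Pde11a within those limits could not be told from none. Pde6d, on chromosome 1 from 86542994 to 86582629, had 45.6, 46.5, 46.1, 41.6 and 42.95 CPM in Pde2A-/- replicates A, B, 14, D and 15, and between 46.4 and 54.0 CPM, with a median of 49.4, in Pde2A+/+ hearts. Its log2 change of -0.15 (95% interval -0.27 to -0.03) had an adjusted p of 0.077 in edgeR and 0.032 in DESeq2.

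The phosphodiesterases that hydrolyse cAMP alone are the natural yardstick, and the gene lists used here and below were fixed for this report with earlier results known. Of 8 such genes, 4 rose in Pde2A-/- hearts, where 8.93% of all genes tested were called higher. The sign was positive for all 8, with a median log2 change of 0.51, and for 11353 of all 24177 genes tested. The count called higher was 4 in each of the 9 alternatives that used all hearts. It was 3 without Pde2A-/- replicate 14, D or 15 or Pde2A+/+ replicate 7, 8 or H, and 5 without Pde2A-/- replicate B. Without Pde2A-/- replicate 15 the median was 0.31. In letter-named hearts alone the median was 0.21 and edgeR called 0 of the 8, beside 86 of 21466 genes called higher. In number-named hearts alone the median was 0.64 and edgeR called 5 of the 8 higher, beside 2310 of 22191 genes. Pde4b rose from 53.4 ± 5.6 to 82.1 ± 13.2 CPM (log2 0.62 ± 0.10 SE, edgeR adjusted p = 0.0018). Pde7b rose by 0.61 and Pde4a and Pde4d by 0.41 and 0.35 on the log2 scale. Pde7a stayed near 0 at 0.01, Pde8a had 0.21, and Pde8b and Pde4c, with 0.72 and 0.61, averaged under 1 CPM. Of the 5 genes listed for the photoreceptor enzyme, Pde6a, Pde6b and Pde6c had too few counts to be tested, and Pde6g and Pde6h averaged at most 0.17 CPM in a genotype.

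Of 14 listed genes that make cGMP, or the nitric oxide in answer to which cGMP is made, 7 averaged at least 1 CPM. Nos2, the inducible nitric oxide synthase, was the one of the 14 that passed the test, where 14.6% of all genes did, with 2.05 ± 0.52 CPM in Pde2A-/- and 3.97 ± 1.17 CPM in Pde2A+/+ hearts (log2 -0.95 ± 0.23 SE, edgeR adjusted p = 0.019). The soluble guanylyl cyclase subunits Gucy1a1 and Gucy1b1 had log2 changes of 0.12 and 0.04, the natriuretic peptide receptors Npr1 and Npr2 -0.07 and 0.03, and Nos3 -0.03. Among 13 tested genes that act on or below cGMP, Rgs2, which quiets G protein signals, and Itpr1, a calcium channel of intracellular stores, rose by 0.43 and 0.35 on the log2 scale, and Prkg1 had 0.14. Rgs2 and Itpr1 were the 2 of the 13 called higher, where 8.93% of all genes tested were.

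Around Pde1, the 3 calmodulin genes had log2 changes from -0.26 to -0.14 with adjusted p between 0.070 and 0.077 in edgeR. Of the 9 genes listed for Pde1 and calmodulin, Pcp4l1 fell (-0.27, edgeR adjusted p = 0.017). DESeq2 called 4 of the 9 lower. Around Pde6d, of 13 prenylated proteins and partners Hras fell (-0.27, edgeR adjusted p = 0.042), and DESeq2 called 4 lower and 1 higher. Around Pde3 and cAMP, 5 of 20 genes rose and 1 fell in edgeR, and 6 rose and 4 fell in DESeq2. Beside these list counts, edgeR called 8.93% of all genes tested higher and 5.67% lower. DESeq2 called 2791 of 24177 genes higher and 2354 lower. The regulatory subunits of protein kinase A Prkar1b, Prkar2b and Prkar1a rose by 0.54, 0.40 and 0.19, and Bves, a cAMP-binding membrane protein of heart muscle, fell by 0.40 on the log2 scale.

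Markers of other cells moved with the genotype. Their counts stand beside 8.93% of all genes tested called higher and 5.67% lower in edgeR, and 2791 of 24177 higher and 2354 lower in DESeq2. Of 12 macrophage markers, 11 rose, and their summed level was 278.8 to 343.3 CPM in Pde2A-/- and 148.0 to 216.9 CPM in Pde2A+/+ hearts. Of 11 erythroid markers tested, 9 rose, with sums of 641 to 1182 and 284 to 611 CPM. Of 11 platelet and megakaryocyte markers 4 rose, with sums of 37.0 to 51.2 and 19.6 to 35.2 CPM. Of 14 cardiomyocyte markers, Ttn, Tnnc1 and Mybpc3 fell and Nppa rose, with sums of 41623 to 47950 and 40629 to 54437 CPM, and DESeq2 called 7 of the 14 lower.

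The vascular and stromal markers split, beside the same shares over all genes. Of 12 endothelial markers 4 rose, among them Emcn and Flt1, and Cldn5 fell, with sums of 1797 to 1997 CPM in Pde2A-/- and 1444 to 1724 CPM in Pde2A+/+ hearts, and DESeq2 called 7 of the 12 higher. Of 12 smooth muscle and pericyte markers 3 fell, Cnn1, Kcnj8 and Smtn, with sums of 1829 to 2103 and 1852 to 2557 CPM. Of 12 fibroblast and epicardial markers Postn, Tcf21 and Pdgfra rose and Tbx18 fell, with sums of 7324 to 11787 and 6201 to 11429 CPM. Of 12 neural crest and neuron markers edgeR and DESeq2 called 0, with 1 at an unadjusted p under 0.05 in edgeR, and sums of 12.7 to 23.3 and 11.6 to 35.4 CPM. No annotated marker had 0 counts in all hearts. In whole hearts a change in the number of cells of a type and a change in RNA per cell cannot be told apart, and the part of these shifts in the levels of Pde1a, Pde3a and Pde10a was not tested.

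Within a genotype the 10 genes varied from heart to heart, and these deviations are described over the 11 hearts for the 9 genes that averaged at least 1 CPM. The points share library and depth and carry no test. Among the 36 pairs, Pde1c went with Pde3a (r = 0.74) and Pde9a with Pde10a (r = 0.69), and Pde6d ran against Pde1c (r = -0.77). Pde5a went with the mean of the fibroblast and epicardial markers (r = 0.80) and of the macrophage markers (r = 0.73), and Pde3a with that of the smooth muscle and pericyte markers (r = 0.72). Pde9a and Pde10a went with the mean of the neural crest and neuron markers (r = 0.73 and 0.72), most of which were under 1 CPM.

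**Figure D5:**
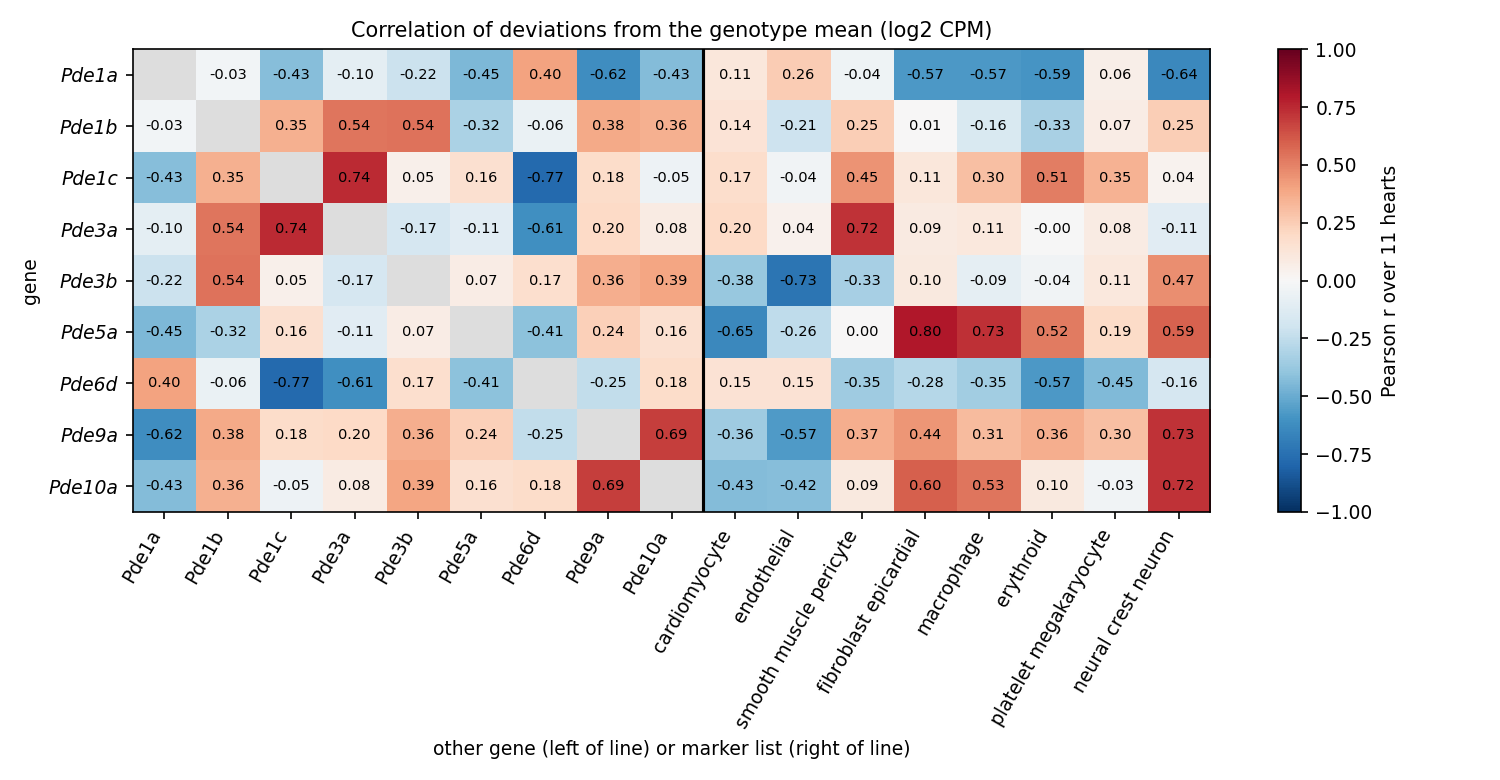
Pearson r over 11 hearts between deviations of log2 CPM from the genotype mean, for pairs of the 9 genes that averaged at least 1 CPM (left of the line) and for each gene with the mean of each marker list (right of the line); red is positive and blue negative. The highest r is 0.80, between Pde5a and fibroblast and epicardial markers, and the lowest is -0.77, between Pde1c and Pde6d.

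Measured in the same way, the genes with the highest r to each of these 9 among 14024 genes of at least 1 CPM were, in pairs, Zdhhc17 and Wdr11 for Pde3a (r = 0.99 and 0.97), Selenoh and Psma7 for Pde6d (0.98 and 0.97) and Col11a2 and Sned1 for Pde5a (both 0.97). They were Fip1l1 and Ggps1 for Pde1a (both 0.95), Cops2 and Nr1d2 for Pde1b (both 0.93), and 4932438A13Rik and Nipal3 for Pde1c (both 0.95). They were Scnm1 and Bsn for Pde9a (0.96 and 0.94), Pmm1 and Cntfr for Pde10a (both 0.95) and Edc3 and Shisa6 for Pde3b (0.90 and 0.87). With so many genes and 11 hearts, values of this size are a ranking and no more.

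Because Pde10a and Pde1a both rose in Pde2A-/- hearts, the RefSeq promoter windows (GRCm38.p6, 250 bases before to 50 after a start site) were read for the letters of the cAMP response element, TGACGTCA, on both strands. Windows were held for 7 of the 10 genes, 15 windows in all, and not for Pde3a, Pde3b and Pde9a. The full element was in 0 of the 15 windows and in 1.79% of 32851 windows of all genes, and its shorter core, TGACG, which lies within the full element, was in 1 of the 15 windows and in 20.8% of all windows. The form with 1 free base, TGACNTCA, chosen after the windows had been seen, was in 4 of the 15 windows and in 8.83% of all windows. The matches stand in capitals in 30 bases of the gene's strand, 5′ to 3′.

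Pde10a: agggtcagctgTGATGTCAgcagcgtggag

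Pde1a: aaggaatgtgaTGACATCAcatgattacac

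Pde1a: gattgctcccgTGAGGTCAgagcatctgtt

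Pde1b: ttatgtgtgggTGAAGTCAtggcatccagt

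They lie at chr17:8849921-8849950 (plus strand), chr2:79908437-79908466 (minus), chr2:80129066-80129095 (minus) and chr15:103506974-103507003 (plus). They start 53, 56, 113 and 141 bases before the start site of their own window. Pde10a had 2 windows, Pde1a 4 and Pde1b 3, for different start sites of the gene. All the matches lie inside the annotated span of their gene, and use of these start sites in the heart was not tested. Pde1b, which holds one of them, had a log2 change of -0.01. A match of letters is a description of the sequence and does not show that a factor binds there.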

How the data were processed

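The authors prepared stranded poly(A) libraries of E14.5 hearts, sequenced them as single-end reads on a NextSeq 500, mapped them with STAR to GRCm38 (mm10) and deposited STAR's counts per gene, as whole numbers without normalization; the STAR version and annotation are not given in the sources used here. Per the deposited columns, the sense-strand counts were used.

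Genes were named from GENCODE M21 (55227 of 55487 identifiers). The 24177 genes with at least 10 counts over 11 hearts were normalized by TMM and compared by edgeR 4.0.16 (quasi-likelihood test, Benjamini-Hochberg, R 4.3.3), checked on simulated counts. DESeq2 1.42.0, as in the study, was an alternative. CPM per kb used the union of exons. Intervals are 95% from the quasi-likelihood fit. Correlations used log2 CPM with a prior count of 2. Alternatives were other normalizations, filters, strands and covariates, subsets of hearts, and each heart left out.

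The 10 genes and all lists were chosen with earlier results of these data known. Named are the 10 genes, Pde2a with the genes overlapping it, all cAMP-specific phosphodiesterases, up to 3 genes per pathway list past the test with the largest change, the 3 most abundant or most changed markers, and the 2 genes most correlated with each of the 10; other listed genes were named after their values were seen. No label states litter, batch or sex. Xist was at 1 CPM or more in 2 of 5 Pde2A-/- and 1 of 6 Pde2A+/+ hearts. Replicates are single hearts, which share no numbers between genotypes.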

Additional observations from a re-analysis of the deposited data

How the results depend on the processing

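Pde1a and Pde10a kept their call in all 9 alternatives that used all 11 hearts and in all 11 fits without 1 heart, and Pde3a in the same 9 alternatives but in 5 of the 11 fits. Pde1a lost its call in letter-named and in number-named hearts alone (adjusted p = 0.23 and 0.11), where Pde10a had 0.15 and 0.031. With all hearts a fold of at least 2 as well was met by 0 of the 10 genes, and over all genes by 535 higher and 90 lower. In number-named hearts alone Pde1c met it. Of the 10 genes, DESeq2 called 2 lower, and edgeR called 1 lower, Pde6d, with upper-quartile factors, with filterByExpr, with the Xist level as covariate and at an adjusted p under 0.1. Over all genes 2160 were higher and 1372 lower. The lower count was 2354 with DESeq2 and 2555 at an adjusted p under 0.1. It was 751 in hearts with Xist under 1 CPM alone (3 Pde2A-/- and 5 Pde2A+/+, chosen after the Xist levels had been seen). In those hearts Pde1a, Pde3a and Pde10a were called with log2 changes of 0.30, 0.37 and 0.87. Without 1 heart in turn, 1288 to 2887 genes were higher and 414 to 2165 lower, lowest without Pde2A-/- replicate D and highest without replicate A.

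The sign turned for genes near 0. Pde1b was 0.034 with naming style as covariate, 0.15 in number-named hearts and 0.015 in hearts with Xist under 1 CPM, and -0.12 to 0.055 without 1 heart. Pde11a was -0.0022 with upper-quartile factors, -0.10 in number-named hearts and -0.19 to 0.19 without 1 heart. Pde1c was -0.15 in letter-named hearts alone. The causes were not tested. Pde11a had the fewest reads of the 10, 8 to 24 per heart, and no heart stood apart from its genotype for any of the 10 genes by Dixon's test in 20 groups. No paired analysis was possible because the replicate names are not shared between the genotypes.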
